A study of Homo sapiens with 12 samples.

Results

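The genes described here are the protein-coding genes of human chromosome 19 whose symbol is ZNF followed by a number and at most 1 letter, the systematic names of zinc finger genes. The rule was applied to symbol, biotype and chromosome alone and gave 246 genes of the 60675 in the deposited table. Of these 246 members, 195 had enough reads to be tested and 51 did not. The level was read in U-2932, an established human diffuse large B cell lymphoma line that stably expressed Roquin2, an RNA-binding protein of mRNA decay encoded by RC3H2, as wild-type protein (WT) or with a phenylalanine in place of a tyrosine (Y691F). Cells of each form were left untreated or were kept for 12 h with 10 µg/ml of an F(ab')2 fragment against IgM, a trigger of signalling through the B cell receptor. Each of the 4 groups, made by the form of Roquin2 and the treatment, held 3 polyA+ RNA-seq libraries, which the series names independent biological replicates. All 4 groups therefore carry a stably expressed Roquin2, and no group holds cells without one. Whether each form was kept in 1 line, in 1 clone or in several is not stated in the sources at hand, so Y691F and the cells that carried it cannot be told apart.

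Most zinc finger proteins of chromosome 19 bind DNA through a row of C2H2 fingers, each finger reading a few bases, and carry a KRAB box near the N-terminus. The KRAB box binds TRIM28 (KAP1), which brings the histone methyltransferase SETDB1 and heterochromatin protein 1, so that the bound site is silenced. Many of these proteins repress endogenous retroelements, and the genes lie in tandem arrays that grew by duplication. In the coding translations of the annotation a KRAB box was found in 210 of the 244 members with a protein sequence, against 127 of 262 ZNF genes with the same naming pattern on other chromosomes. The number of C2H2 finger motifs had a median of 12 and ran from 0 in ZNF738 to 36 in ZNF208.

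Promoter stretches are shown first, because several members of 1 array that rose with IgM share a motif upstream of the start and a neighbour that fell holds it too. RefSeq (GRCh38.p14) held a promoter window of 300 bases for 213 of the 246 members, from 250 before to 50 after each listed start. The cyclic AMP response element TGACGTCA, a palindrome that reads alike on both strands, lay in a window of 8 of the 213 members (3.76%). Among the 35116 windows of all genes it lay in 1.85%, and among the 261 windows of members in 3.07%. The 8 were ZNF121, ZNF266, ZNF426, ZNF561 and ZNF562, all neighbours on the short arm, and ZNF460, ZNF543 and ZNF547 near the long-arm telomere. These members were singled out after their values had been seen. The stretches of 3 of them follow, 5′ to 3′ on the strand of the gene, each 120 bases long and ending before both the RefSeq start and the deposited gene model. The capitals mark the element, which begins 50, 21 and 17 bases before the listed start of ZNF121, ZNF426 and ZNF266. The positions are chr19:9584534-9584653, chr19:9538646-9538765 and chr19:9435579-9435698, all on the minus strand.
ZNF121: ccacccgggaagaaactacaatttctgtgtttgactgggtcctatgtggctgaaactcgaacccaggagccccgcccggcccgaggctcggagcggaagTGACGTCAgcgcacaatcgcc
ZNF426: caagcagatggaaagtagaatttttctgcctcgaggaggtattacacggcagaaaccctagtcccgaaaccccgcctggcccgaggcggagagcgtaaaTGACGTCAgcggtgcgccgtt
ZNF266: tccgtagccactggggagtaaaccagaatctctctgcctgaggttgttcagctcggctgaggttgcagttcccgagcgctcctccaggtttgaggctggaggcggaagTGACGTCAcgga

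A motif of the ETS factors, CCGGAAGT on either strand, was more frequent in these promoters than the cyclic AMP response element. The ETS motif lay in 17.6% of the windows of members and in 4.14% of all windows, and 46 of the 213 members held it. It is shown for ZNF805 and ZNF274, whose level was higher with IgM, and for ZNF175, whose level was not called different in any comparison. The capitals mark the motif as it reads on the strand of the gene, at chr19:57240512-57240631, chr19:58182909-58183028 and chr19:51571163-51571282, all on the plus strand.
ZNF805: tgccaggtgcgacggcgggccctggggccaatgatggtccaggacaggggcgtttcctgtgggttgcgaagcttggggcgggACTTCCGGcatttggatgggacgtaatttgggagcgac
ZNF274: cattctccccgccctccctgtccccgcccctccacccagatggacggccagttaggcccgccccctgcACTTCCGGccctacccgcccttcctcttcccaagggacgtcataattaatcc
ZNF175: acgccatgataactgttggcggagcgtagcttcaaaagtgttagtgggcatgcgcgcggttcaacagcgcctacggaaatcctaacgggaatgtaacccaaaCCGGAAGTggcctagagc

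Of the other motifs searched on both strands, that of SP1, GGGGCGGGG, lay in 21.5% of the windows of members and in 15.7% of all windows. The YY1 motif AAGATGGC lay in 5.36% against 2.89%, the NRF1 motif GCGCATGCG in 3.45% against 1.92%, the AP-1 motif TGANTCA in 6.13% against 7.71%, and the EGR motif GCGNGGGCG in 6.51% against 9.43%. The NF-kB motif GGGACTTTC was found in no window of a member and in 0.387% of all windows. These matches describe letters in 1 window, and binding at them was not measured here.

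The 12 libraries held 16465393 to 21478790 counted reads. Replicates lay close together, with a fitted common coefficient of variation beyond counting error of 2.51%. The adjusted p-values below are measured against this small spread between replicates of the same cell line. Levels below are CPM, reads scaled to the TMM-adjusted library total, and levels compared between genes are the RPKM values of the authors, which are per length. RC3H2, endogenous and introduced copy together, stood at 111 ± 1.08 and 121 ± 1.80 CPM (SD, n = 3) in WT untreated and with IgM, and at 209 ± 0.880 and 206 ± 1.79 CPM in Y691F. The substitution cannot be read from gene counts, and the Y691F cells held more RC3H2 mRNA than the WT cells in both states. The B cell markers were present, with 8 of 8 tested and a summed level of 4186 to 5618 CPM. Of 7 T and NK cell markers 1 was tested, with CD3D, CD2 and NKG7 at 0 in all 12 libraries, and of 6 myeloid markers 1 was tested. Of 5 epithelial and fibroblast markers 3 were tested, with EPCAM at 21.3 CPM over the 12 libraries and KRT8 at 0.0397 CPM.

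The members were expressed at low level. The median RPKM of the 195 tested members was 1.12, against 3.13 for all 15112 tested genes. Of the 246 members, 177 reached 1 CPM on average and 81 reached 10 CPM. Among the 51 untested members, 9 had no read in any library and the other 42 had a median of 9 reads over the 12 libraries and at most 87. The 5 members with the highest RPKM over the 12 libraries were ZNF581 (36 RPKM), ZNF296 (31.5 RPKM), ZNF580 (25.7 RPKM), ZNF146 (25.1 RPKM) and ZNF787 (21.3 RPKM). No KRAB box was found in any of these 5.

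Treatment with IgM went with a higher summed level of the 246 members in both forms of Roquin2. In WT the sum was 2558, 2586 and 2583 CPM untreated and 3639, 3631 and 3593 CPM with IgM. In Y691F it was 2603, 2572 and 2573 CPM untreated and 3554, 3551 and 3490 CPM with IgM. The groups with and without IgM did not overlap, and the untreated libraries of both forms did. The ratio of IgM to untreated was 1.41 in WT and 1.37 in Y691F, with p = 0.1 in each by a 2-sided exact permutation test, the smallest p that 3 against 3 libraries can give. Scaled by library totals alone, the ratios were 1.28 and 1.22, with p = 0.1 in each by the same exact test. The untreated sums of Y691F and WT had a ratio of 1.003 (exact permutation p = 0.6), and the sums with IgM a ratio of 0.975 (exact permutation p = 0.1). The summed B cell markers moved the other way, from 5497 to 5586 CPM in WT untreated to 4186 to 4232 CPM with IgM, and from 5457 to 5618 CPM to 4409 to 4524 CPM in Y691F. The TMM factors were 1.04 to 1.07 in untreated libraries and 0.939 to 0.956 with IgM. The part of either in the results was not tested. In such bulk samples, fewer cells that express a gene and less of its RNA per cell cannot be told apart.

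**Figure D1:**
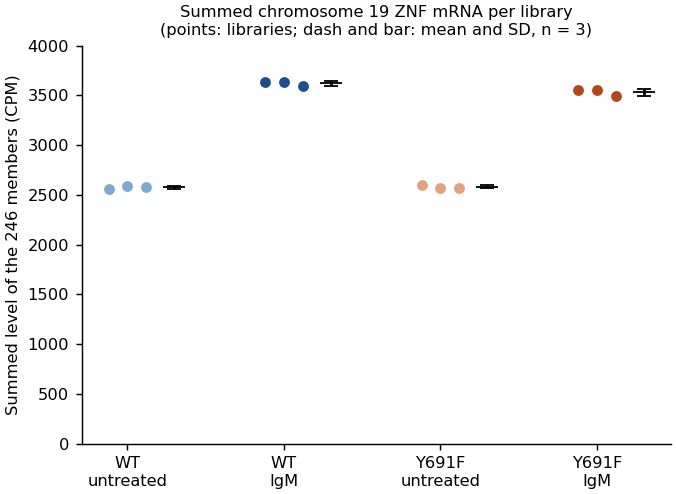
Summed level of the 246 members in each of the 12 libraries, in CPM on an axis from 0, with the mean and SD of the 3 libraries of each group beside the points. The untreated libraries lie between 2558 and 2603 CPM and those with IgM between 3490 and 3639 CPM.

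Gene by gene, 112 of the 195 tested members were called higher with IgM in WT and 33 lower, where a call is an adjusted p under 0.05 in edgeR's quasi-likelihood test with Benjamini-Hochberg adjustment over all 15112 tested genes. Of all tested genes 76.9% were called in this comparison, 38.4% higher and 38.5% lower, against 57.4% and 16.9% of the tested members. The median log2 change was 0.41 over the tested members and 0.00 over all tested genes. In Y691F, 104 members were called higher and 36 lower, where 75.8% of all genes were called, 37.1% higher and 38.7% lower. The median log2 change was 0.36 over the tested members and -0.01 over all genes. With library totals alone, 100 members were called higher and 41 lower in WT, and 87 higher and 48 lower in Y691F. That scaling lowered the median of all genes by 0.13 in WT and by 0.17 in Y691F. A member with too few reads in all groups was not tested, so these counts describe the 195 and not the 246.

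Changes of at least 2-fold were called in 35 members upward and 8 downward with IgM in WT (8.91% and 15.8% of all genes), and in 23 upward and 11 downward in Y691F (8.07% and 14.4% of all genes). Of the 195 tested members, 139 in WT and 137 in Y691F were called with the 3 libraries with IgM wholly on one side of the 3 untreated ones. Of all tested genes, 74.1% and 72.3% were called with such a separation. The median called rise was 0.74 on the log2 scale in WT and 0.67 in Y691F.

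ZNF genes of other chromosomes, 213 of them tested, had a median log2 change of 0.18 in WT with 110 higher and 60 lower. The 660 other tested protein-coding genes of chromosome 19 had a median of -0.07, with 261 higher and 295 lower. No test of the difference between these lists and the members was made.

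Members were then divided by the KRAB box, which their choice did not use. Of the 165 tested members with a KRAB box, 98 were called higher and 20 lower with IgM in WT, with a median log2 change of 0.45. Of the 29 without one, 13 were called higher and 13 lower, where 38.4% and 38.5% of all genes were called. Their median was -0.18, which became 0.12 when only genes above 5 CPM in 3 libraries were kept. In Y691F the counts were 91 higher and 22 lower with the box, with a median of 0.37. They were 12 higher and 14 lower without it, where the median of 0.05 turned to -0.12 with library totals alone. Of all genes, 37.1% were called higher and 38.7% lower in Y691F. In the sum over members, those with a KRAB box went from 1560.1 ± 32.9 to 2259 ± 31.4 CPM in WT and from 1612 ± 28.4 to 2214 ± 14.4 CPM in Y691F (SD, n = 3). Those without went from 1014 ± 17.6 to 1359 ± 8.59 CPM and from 969 ± 29.2 to 1315 ± 24.2 CPM (SD, n = 3). ZNF121 and ZNF146, described below, are among those without. KRAB genes on other chromosomes had a median of 0.16 in WT (104 tested, 48 higher and 30 lower).

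By finger number the counts lay close together. Members with more than 12 finger motifs had 54 of 93 called higher and 16 lower in WT, and those with at most 12 had 57 of 101 higher and 17 lower. By level, the upper part of the tested members by RPKM had 68 of 98 called higher in WT and the lower part 44 of 97. Of all genes, 38.4% were called higher in WT and 38.5% lower. Members with fewer reads have wider errors and are less easily called, and the part of this in the split was not tested.

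**Figure D2:**
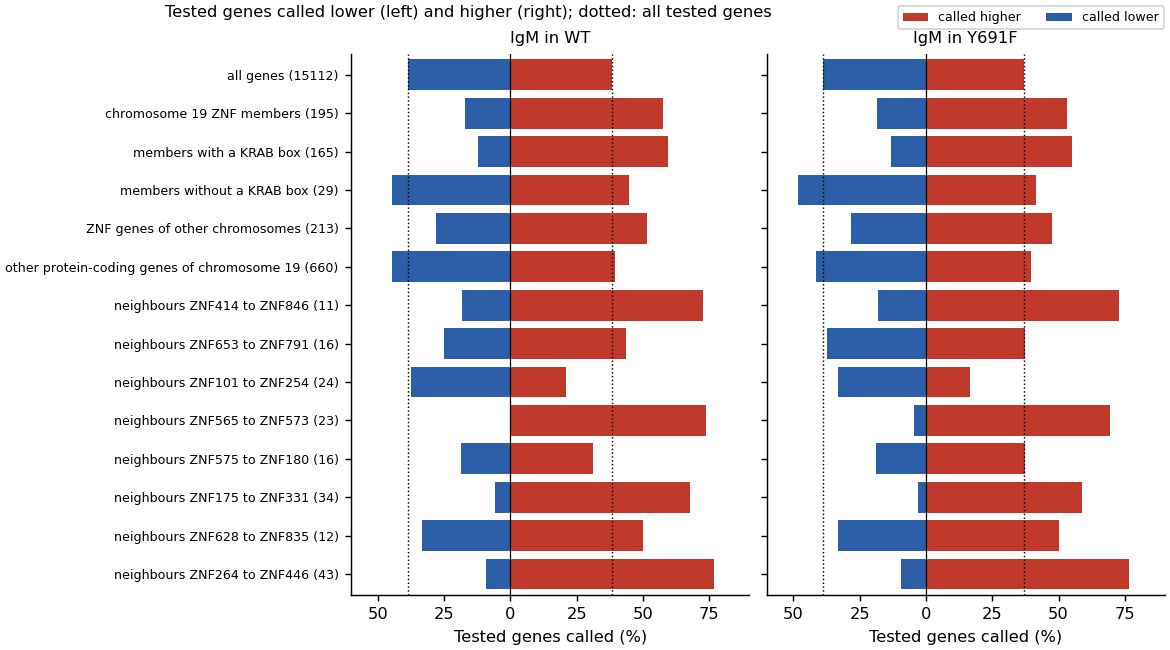
Share of tested genes called lower (left of 0) and higher (right of 0) with IgM, in percent, in WT and Y691F, for the members, their parts and comparison lists, with the number tested in parentheses. Dotted lines give the shares of all tested genes, 38.4% higher and 38.5% lower in WT, and members with a KRAB box reach 59.4% higher and 12.1% lower there.

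Along the chromosome the response was uneven. For comparison with the groups below, 38.4% of all tested genes were called higher and 38.5% lower in WT, and 37.1% and 38.7% in Y691F. Members less than 500 kb apart were joined into 20 groups, of which 8 held at least 10 members; positions are those of the deposited table (GRCh38). Of these 8, the group from ZNF565 to ZNF573 (chr19:36182060-37817300) on the long arm had the highest median in WT, and in it 17 of 23 tested members were called higher in WT and 0 lower. Its median log2 change was 0.92 in WT and 0.67 in Y691F, where 16 were higher and 1 lower. The summed level of its 26 members went from 123 ± 3.76 to 316 ± 3.38 CPM in WT and from 130.5 ± 3.89 to 323 ± 12.3 CPM in Y691F (SD, n = 3). In both forms most of the rise of this sum lay in 1 member, ZNF146, described below.

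The group from ZNF264 to ZNF446 (chr19:57191500-58481230), next to the long-arm telomere, had all 43 members tested, with 33 higher and 4 lower in each form and medians of 0.53 in WT and 0.47 in Y691F. The group from ZNF175 to ZNF331 (chr19:51571298-53580269) had 23 of 34 higher and 2 lower in WT, and 20 higher and 1 lower in Y691F. The short-arm group from ZNF414 to ZNF846 (chr19:8509678-9793180) had 8 of 11 higher and 2 lower in each form, with a median of 0.76 in each, above that of the group from ZNF565 to ZNF573 in Y691F. Its summed level went from 346 ± 3.90 to 686 ± 7.45 CPM in WT. Most of that rise lay in 1 member, ZNF121, which went from 83.3 ± 2.37 to 278 ± 2.21 CPM (SD, n = 3).

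The group from ZNF101 to ZNF254 (chr19:19668796-24129961), which holds 36 members beside the centromere, had more falls than rises. In it 5 of 24 tested members were called higher and 9 lower in WT, where 38.4% and 38.5% of all genes were called. The median of the group in WT was -0.17, which became -0.01 without the filter on low counts and -0.31 with library totals alone. In Y691F 4 were higher and 8 lower, where 37.1% and 38.7% of all genes were called. Falls were thus no more frequent than among all genes in either form, and rises were less frequent. The median of the group in Y691F was -0.15, which became 0.06 and -0.32 under the same alternatives. Its summed level went from 177 ± 3.88 to 169 ± 1.28 CPM in WT and from 178 ± 2.24 to 162 ± 2.04 CPM in Y691F (SD, n = 3), and the libraries with IgM lay below the untreated ones in both. Of these 36 members 34 have a KRAB box.

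The group from ZNF653 to ZNF791 (chr19:11483427-12640098) had 7 of 16 higher and 4 lower in WT, with a median of 0.07 that turned to -0.07 with library totals alone and to -0.11 without the filter on low counts. With only genes above 5 CPM in 3 libraries, which leaves 7 of the group, 5 were called higher and 0 lower and the median was 0.56. In Y691F its median was -0.01, and it ran from -0.34 without the filter to 0.31 with that of 5 CPM. The group from ZNF575 to ZNF180 (chr19:43525497-44500524) had 5 of 16 higher and 3 lower, with a median of 0.11 that turned to -0.02 with library totals alone. The group from ZNF628 to ZNF835 (chr19:55476332-56671783) had 6 of 12 higher and 4 lower, with a median of 0.14 that became 0.01 with library totals alone and, with the filter of 5 CPM, -0.07. In Y691F the group from ZNF628 to ZNF835 had a median of 0.15, which turned to -0.02 with library totals alone. The counts of these groups in WT stand beside 38.4% of all genes called higher and 38.5% called lower.

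**Figure D3:**
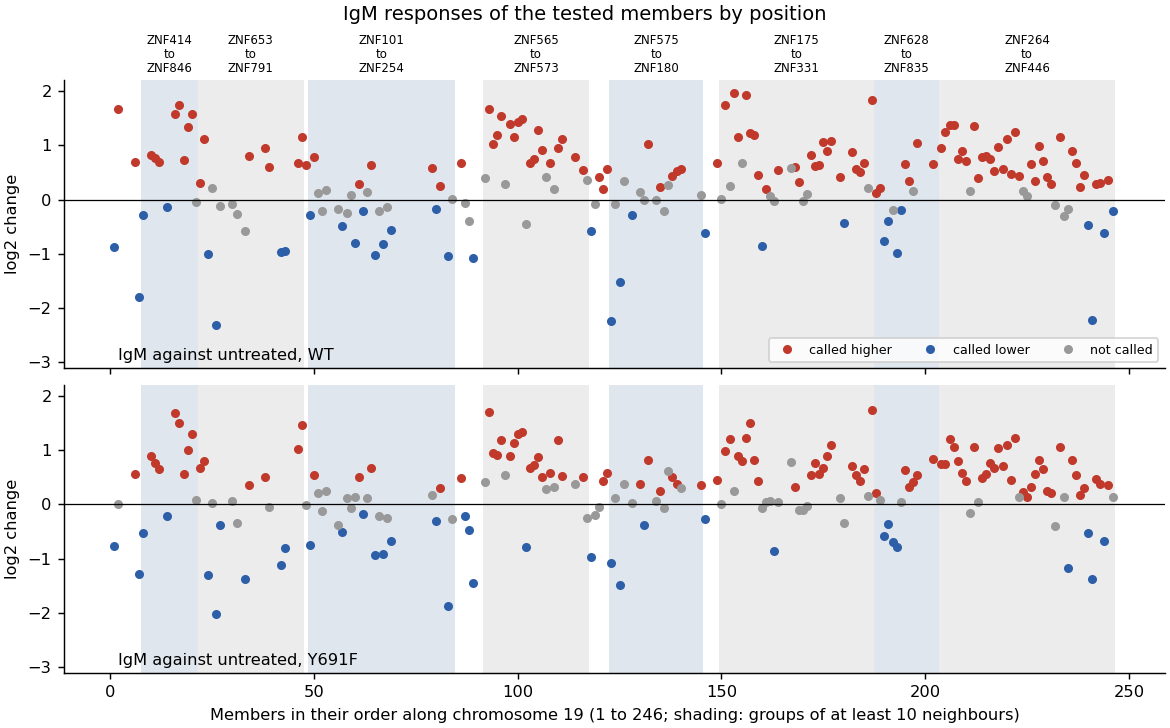
Log2 change with IgM of the 195 tested members in WT (top) and Y691F (bottom), in the order of the 246 members along chromosome 19, with the groups of at least 10 neighbours shaded and calls in colour. In the group from ZNF565 to ZNF573 17 of 23 are called higher in WT and 0 lower, and in the group from ZNF101 to ZNF254 5 of 24 are called higher and 9 lower. Of all tested genes 38.4% are called higher in WT and 38.5% lower.

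Among the largest rises, ZNF331, an imprinted KRAB gene that is silenced by methylation in several carcinomas, stood at 7.10, 8.68 and 8.38 CPM in WT untreated and at 29.9, 28.2 and 28.9 CPM with IgM. In Y691F it stood at 11.4, 10.4 and 9.97 CPM untreated and at 35.7, 33.4 and 36.8 CPM with IgM. The lowest library with IgM was above the highest untreated one in both forms. The log2 change was 1.84 ± 0.08 (SE, adjusted p = 4.74e-37) in WT and 1.73 ± 0.07 (adjusted p = 3.96e-38) in Y691F.

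ZNF146, a short protein made of zinc fingers with no KRAB box, stood at 56.5, 63.4 and 61.6 CPM in WT untreated and at 196, 193 and 191 CPM with IgM. In Y691F it stood at 61.6, 63.8 and 64.9 CPM untreated and at 205, 197 and 217 CPM with IgM. The rise of 1.67 ± 0.04 (SE, log2) in WT and 1.70 ± 0.04 in Y691F left no overlap between the groups. ZNF146 overlaps ZNF565 on the opposite strand; the libraries were stranded, but whether strand was used in counting is not stated.

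ZNF121, a reported partner of MYC and one of the genes with the cyclic AMP response element shown above, stood at 85.4, 80.7 and 83.8 CPM in WT untreated and at 278, 280 and 276 CPM with IgM. In Y691F it stood at 86.4, 78.9 and 87.6 CPM untreated and at 244, 245 and 226 CPM with IgM. The untreated libraries of both forms overlapped, and with IgM all 3 of Y691F lay below all 3 of WT. The log2 change was 1.74 ± 0.04 (SE, adjusted p = 7.81e-60) in WT and 1.5 ± 0.04 (adjusted p = 8.09e-55) in Y691F.

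ZNF426, with the same element, stood at 3.34, 3.38 and 2.70 CPM in WT untreated and at 8.92, 10.5 and 8.67 CPM with IgM, a log2 change of 1.57 ± 0.13 (SE). In Y691F it went from 3.77, 4.25 and 3.88 CPM to 11, 14.1 and 13.1 CPM, a log2 change of 1.68 ± 0.11. Its untreated libraries did not overlap with those with IgM in either form. ZNF562 rose by a log2 change of 1.33 ± 0.05 in WT and 1.0 ± 0.05 in Y691F, and ZNF561 by 0.73 ± 0.05 and 0.56 ± 0.05. ZNF460 rose by 1.38 ± 0.11 and 1.22 ± 0.12, ZNF543 by 1.37 ± 0.10 and 1.06 ± 0.10, and ZNF547 by 0.90 ± 0.20 and 0.58 ± 0.19.

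ZNF266, the remaining member with the element, did not follow them. It stood at 63.8, 69.3 and 67.5 CPM in WT untreated and at 60.3, 62.0 and 60.6 CPM with IgM, a log2 change of -0.13 ± 0.04 (SE, adjusted p = 0.00395). In Y691F the log2 change was -0.21 ± 0.04 (adjusted p = 1.36e-05). The libraries with IgM lay below the untreated ones in both forms, while the other 7 members with the same letters rose.

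Of the 89 members with a promoter window that were called higher with IgM in both forms, 7 held the cyclic AMP response element (7.87%) and 29 the ETS motif (32.6%). Of the 25 called lower in both, 1 held the former (4%) and 3 the latter (12%). Over all 213 members with a window the shares were 3.76% and 21.6%, and over all genes 2.25% and 4.95%. Of the 89, 9 held the AP-1 motif (10.1%), 8 that of YY1 (8.99%) and 5 that of NRF1 (5.62%), against 0 of the 25 for each. The SP1 motif lay in 21 (23.6%) and 4 (16%), the EGR motif in 6 (6.74%) and 2 (8%), and the NF-kB motif in 0 of either. Several of the 7 with the cyclic AMP response element are neighbours in 1 array, and a link between any motif and the response was not tested. ZNF274, which recruits SETDB1 to the 3′ ends of zinc finger genes and whose ETS motif is shown above, stood at 41.1, 40.2 and 38.2 CPM in WT untreated and at 63.6, 63.3 and 63.9 CPM with IgM. Its log2 change was 0.67 ± 0.05 (SE) in WT and 0.54 ± 0.04 in Y691F, without overlap of the libraries. ZNF175, which has been described as a suppressor of HIV-1 transcription and also holds the motif, stood at 14.8 to 15.3 CPM in WT untreated and at 14.2 to 15.6 CPM with IgM. Its log2 change was 0.01 ± 0.08 in each form (adjusted p = 0.921 and 0.892), and the libraries of all 4 groups overlapped.

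The group from ZNF565 to ZNF573 held several of the other large rises. ZNF529 went from 5.67, 5.12 and 3.73 CPM to 13.9, 13.4 and 15.5 CPM in WT, a log2 change of 1.54 ± 0.11 (SE), and changed by 1.20 ± 0.11 in Y691F. ZNF790 rose by 1.48 ± 0.22 and 1.33 ± 0.21, ZNF850 by 1.43 ± 0.14 and 1.30 ± 0.15, and ZNF461 by 1.39 ± 0.17 and 0.89 ± 0.16. ZNF420 (APAK), described as a negative regulator of p53, went from 4.50, 4.72 and 4.53 CPM to 11.9, 11.1 and 10.5 CPM in WT and from 4.19, 3.83 and 6.55 CPM to 8.56, 8.85 and 9.25 CPM in Y691F. Its log2 change was 1.28 ± 0.12 and 0.87 ± 0.12, with no overlap in either form. ZNF529 overlaps ZNF382, ZNF790 overlaps ZNF345 and ZNF420 overlaps ZNF585A on opposite strands, and reads of such pairs cannot be told apart where strand was not used in counting.

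Elsewhere, ZNF812 rose by 1.58 ± 0.23 in WT and 1.30 ± 0.24 in Y691F on the log2 scale, and no coding translation of it was in the annotation used. ZNF791 went from 24.9, 24.8 and 21.6 CPM to 58.7, 52.1 and 47.8 CPM in WT and from 20.5, 22.0 and 22.7 CPM to 60.6, 60.8 and 58.5 CPM in Y691F. These are log2 changes of 1.15 ± 0.06 and 1.47 ± 0.06, and ZNF791 overlaps ZNF490 on the opposite strand. ZNF551, in the group next to the telomere, rose by 1.25 ± 0.06 and 1.23 ± 0.06.

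**Figure D4:**
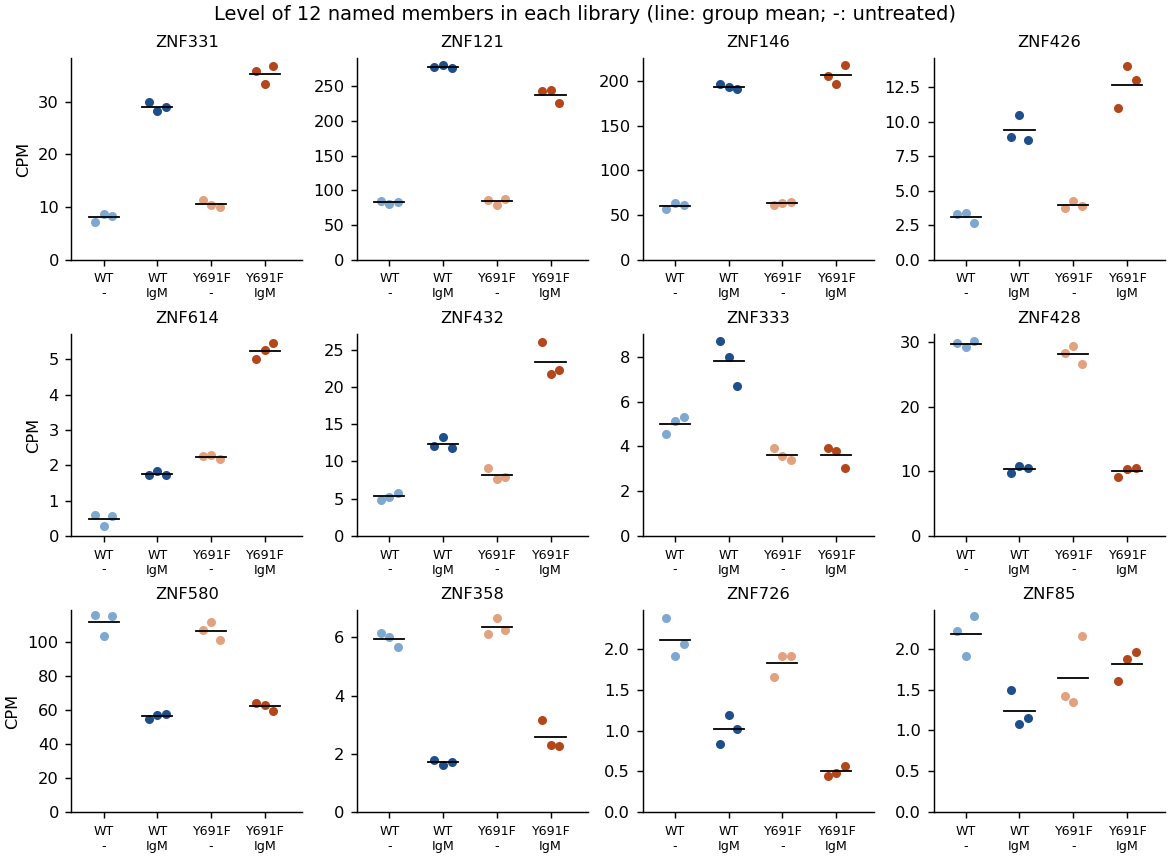
Level of 12 named members in CPM (linear axes from 0) in each library, with a line at each group mean and untreated marked by a dash. ZNF331 goes from 7.10 to 8.68 CPM in WT untreated to 28.2 to 29.9 CPM with IgM, and ZNF428 from 29.3 to 30.2 CPM to 9.76 to 10.8 CPM.

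Among the largest falls with IgM in WT, at a mean of at least 1 CPM, were ZNF837, ZNF358 and ZNF428, none with a KRAB box. ZNF428, with 1 finger motif, stood at 29.9, 29.3 and 30.2 CPM in WT untreated and at 9.76, 10.8 and 10.5 CPM with IgM. In Y691F it stood at 28.3, 29.4 and 26.7 CPM untreated and at 9.06, 10.4 and 10.6 CPM with IgM. The groups lay far apart and both forms gave like values, with log2 changes of -1.52 ± 0.07 (SE, adjusted p = 4.15e-33) and -1.49 ± 0.07 (adjusted p = 2.52e-32). ZNF428 overlaps SRRM5 on the opposite strand.

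ZNF580, the third most abundant member per length, stood at 115, 103 and 115 CPM in WT untreated and at 54.4, 56.8 and 57.6 CPM with IgM. In Y691F it stood at 107, 112 and 101 CPM untreated and at 64.2, 62.9 and 59.0 CPM with IgM. The log2 change was -0.98 ± 0.04 (SE) in WT and -0.78 ± 0.04 in Y691F, with no overlap. Its neighbour ZNF581, whose gene model overlaps it on the same strand, changed by -0.18 ± 0.04 (adjusted p = 6.56e-05) in WT, with libraries of 85.4, 86.7 and 83.3 CPM untreated and 74.6, 72.0 and 79.1 CPM with IgM. In Y691F the change of ZNF581 was 0.05 ± 0.04 (adjusted p = 0.287).

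ZNF358 stood at 6.15, 6.01 and 5.68 CPM in WT untreated and at 1.80, 1.62 and 1.72 CPM with IgM, a log2 change of -1.80 ± 0.16 (SE). In Y691F it went from 6.12, 6.68 and 6.24 CPM to 3.17, 2.31 and 2.28 CPM, a change of -1.29 ± 0.14. ZNF837 went from 2.44, 2.85 and 2.70 CPM to 0.299, 0.648 and 0.765 CPM in WT, with 29 reads over the 3 libraries with IgM, and its log2 changes were -2.22 ± 0.26 and -1.37 ± 0.21. Neither gene had an overlap between its untreated libraries and those with IgM.

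ZNF726, a KRAB member of the group beside the centromere, stood at 2.38, 1.91 and 2.07 CPM in WT untreated and at 0.838, 1.19 and 1.02 CPM with IgM. In Y691F it stood at 1.66, 1.92 and 1.91 CPM untreated and at 0.445, 0.483 and 0.570 CPM with IgM, with 26 reads over those 3 libraries. The log2 changes were -1.04 ± 0.23 (SE) and -1.86 ± 0.28, and no libraries overlapped. ZNF738, which has a KRAB box but no finger motif in its longest protein, fell by 1.02 ± 0.14 in WT and 0.93 ± 0.14 in Y691F on the log2 scale, and ZNF429 fell by 0.81 ± 0.15 and 0.91 ± 0.15.

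Outside that group, ZNF823 changed by -1.0 ± 0.20 in WT and -1.30 ± 0.21 in Y691F, and ZNF554 by -0.88 ± 0.17 and -0.76 ± 0.15. ZNF546 changed by -0.58 ± 0.22 (adjusted p = 0.0148) and -0.96 ± 0.21. ZNF836 was called in WT, at -0.85 ± 0.26 (SE, adjusted p = 0.00212), and not in Y691F, at -0.07 ± 0.24 (adjusted p = 0.794), and the interaction of both was not called (adjusted p = 0.0989).

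ZNF91, which represses SVA and LINE-1 elements, stood at 17.8, 18.8 and 19.2 CPM in WT untreated and at 16.6, 16.4 and 16.5 CPM with IgM, and at 18.2, 16.1 and 17.5 CPM and 15, 12.8 and 14.1 CPM in Y691F. The log2 change was -0.17 ± 0.07 (adjusted p = 0.0317) in WT, a call lost without replicate 2 or 3 of WT untreated or any 1 library of WT with IgM (adjusted p up to 0.0996). In Y691F it was -0.31 ± 0.08 (adjusted p = 0.000194). ZNF93, which represses LINE-1, changed by 0.19 ± 0.15 and 0.24 ± 0.13 (adjusted p = 0.26 and 0.088). ZNF675, an inhibitor of TRAF6 signalling, changed by 0.25 ± 0.11 (adjusted p = 0.04) in WT and 0.30 ± 0.12 (adjusted p = 0.0177) in Y691F, and both calls were lost with library totals alone (adjusted p = 0.363 and 0.325). The WT call of ZNF675 was also lost without replicate 1 or 3 of WT untreated or replicate 1 or 2 of WT with IgM (adjusted p = 0.0535 to 0.252, log2 change down to 0.16). The Y691F call of ZNF675 was lost without replicate 3 of Y691F untreated or replicate 1 of Y691F with IgM (adjusted p = 0.173 and 0.172, log2 change down to 0.19). ZNF224, a repressor of the aldolase A gene, changed by 0.24 ± 0.10 and 0.26 ± 0.09 (adjusted p = 0.0194 and 0.0117), calls likewise lost with library totals alone (adjusted p = 0.318 and 0.411). The WT call of ZNF224 was also lost without replicate 1 of WT untreated or replicate 1 of WT with IgM (adjusted p = 0.18 and 0.109, log2 change down to 0.15).

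The IgM responses of WT and Y691F share no library and were alike across members. Of the 195, 97 were called higher in both forms and 27 lower in both, 0 were called in opposite directions and 34 in neither. Of all tested genes, 32.5% were higher in both, 33.1% lower in both and 1.43% opposite. Across the tested members the log2 changes had a Pearson r of 0.889 and a Spearman rho of 0.893, and across all tested genes 0.910 and 0.904, where genes are not independent replicates.

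The difference between the responses, tested by the interaction term, was called in 25 members. In 8 of them the response was higher in Y691F and in 17 lower, where 14.7% and 11.0% of all genes were called. Among the members with a KRAB box, 3 were called higher and 14 lower. The count of 17 was 8 with the Wald test of DESeq2, 10 without the filter on low counts and 11 without replicate 2 of WT with IgM.

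ZNF333 was one of them. It stood at 4.56, 5.12 and 5.34 CPM in WT untreated and at 8.74, 7.99 and 6.70 CPM with IgM, but at 3.91, 3.57 and 3.37 CPM and 3.95, 3.81 and 3.04 CPM in Y691F. All libraries with IgM were above the untreated ones in WT, and they overlapped in Y691F. The log2 changes were 0.65 ± 0.12 (adjusted p = 1.34e-06) and 0.00 ± 0.15 (adjusted p = 0.992), with an interaction of -0.65 ± 0.19 (adjusted p = 0.00683). ZNF333 overlaps ADGRE2 on the opposite strand.

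ZNF44 showed a like pattern, at 3.6, 4.05 and 3.56 CPM in WT untreated, 6.41, 4.86 and 5.99 CPM with IgM, and 3.73, 5.02 and 4.73 CPM and 4.67, 3.86 and 4.50 CPM in Y691F. Its interaction was -0.65 ± 0.20 (adjusted p = 0.00816). ZNF85 stood at 2.23, 1.91 and 2.41 CPM in WT untreated and at 1.5, 1.08 and 1.15 CPM with IgM, and at 1.43, 1.35 and 2.17 CPM and 1.61, 1.88 and 1.96 CPM in Y691F. It fell in WT (-0.80 ± 0.23, adjusted p = 0.000993) and its change in Y691F was 0.14 ± 0.22 (adjusted p = 0.555), with an interaction of 0.94 ± 0.31 (adjusted p = 0.0171). The interaction of ZNF85 missed the threshold when replicate 2 of WT with IgM, or replicate 1 or 2 of Y691F untreated, was left out (adjusted p = 0.0516 to 0.0592). ZNF296 went from 82.7, 80.6 and 79.0 CPM to 53.9, 50.8 and 53.6 CPM in WT and from 74.8, 75.8 and 69.5 CPM to 64.2, 60.9 and 58.3 CPM in Y691F. It fell in both forms without overlap, by 0.62 ± 0.04 and 0.26 ± 0.04 on the log2 scale, and the interaction was 0.35 ± 0.06 (adjusted p = 2.49e-06).

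**Figure D5:**
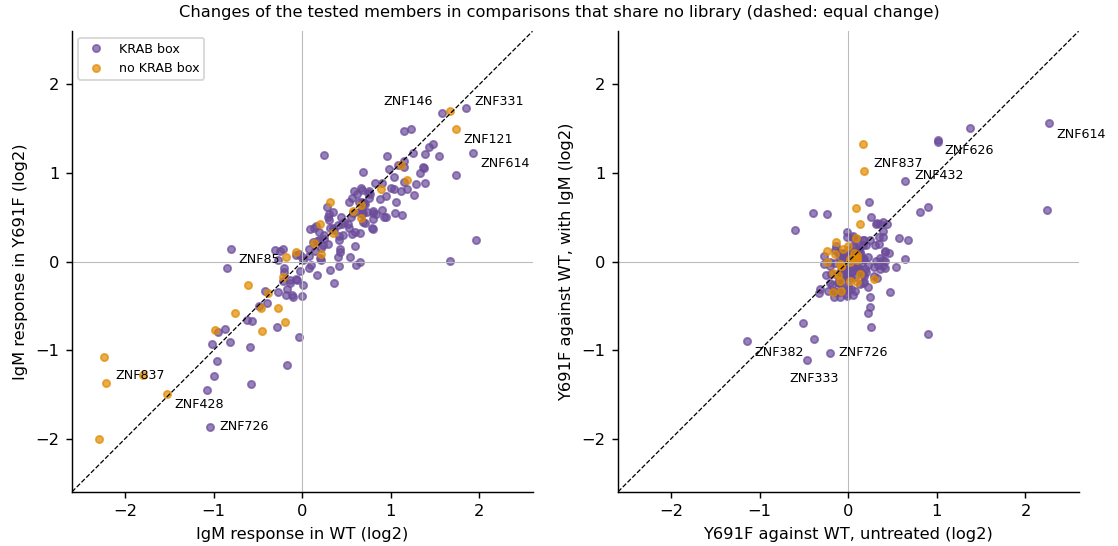
Log2 change of each tested member with a known protein: IgM response in Y691F against that in WT (left), and Y691F against WT with IgM against the same without treatment (right), with the line of equal change dashed and members with and without a KRAB box in different colours. On the left the points follow the line (r = 0.889 over 195 members), and on the right ZNF614 lies far from 0 on both axes (2.26 and 1.56).

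Between the forms, 27 of the 195 members were called higher in untreated Y691F than in untreated WT and 11 lower, where 15.1% and 16.1% of all genes were called. With IgM 28 were called higher and 29 lower, where 21.9% and 20.2% of all genes were called. That makes 38 and 57 members called, where 31.2% and 42.1% of all genes were called. Over all 195 tested members the median log2 differences were 0.05 and -0.01. Called differences of at least 2-fold were 4 upward and 1 downward untreated (1.9% and 0.854% of all genes), and 6 upward and 2 downward with IgM (3.25% and 1.3% of all genes). Of the 165 with a KRAB box, 26 were called higher and 5 lower untreated. Of the 195 tested members, 34 untreated and 51 with IgM were called with groups that did not overlap, where 28.9% and 39.9% of all tested genes were. As an alternative, the Wald test of DESeq2 called 17 higher untreated and 18 lower with IgM.

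Of the 195, 11 were higher in Y691F in both states, 7 were lower in both and 1, ZNF296, was lower untreated and higher with IgM. Of all genes, 8.64% were higher in both, 7.26% lower in both and 3.56% opposite. Both comparisons share no library, and their log2 changes had a Pearson r of 0.555 and a Spearman rho of 0.369 across the tested members.

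ZNF614 had the largest log2 difference between the forms among the named members in both states. It stood at 0.583, 0.267 and 0.574 CPM in WT untreated and at 2.25, 2.28 and 2.17 CPM in Y691F untreated, from 27 and 136 reads over the 3 libraries. With IgM it stood at 1.74, 1.84 and 1.72 CPM in WT and at 5.0, 5.26 and 5.45 CPM in Y691F. The 4 groups lay apart, except that untreated Y691F was only just above WT with IgM. The log2 difference was 2.26 ± 0.26 (SE, adjusted p = 1.03e-11) untreated and 1.56 ± 0.17 (adjusted p = 5.01e-13) with IgM. The rise with IgM was 1.93 ± 0.29 in WT and 1.23 ± 0.15 in Y691F, and their difference was not called (adjusted p = 0.122).

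ZNF432, which lies beside ZNF614, stood at 4.88, 5.25 and 5.79 CPM in WT untreated and at 9.11, 7.66 and 7.91 CPM in Y691F, and with IgM at 12.1, 13.3 and 11.7 CPM and at 26.0, 21.8 and 22.2 CPM. All Y691F libraries lay above the WT libraries of the same treatment, with log2 differences of 0.64 ± 0.11 (adjusted p = 1.5e-06) and 0.91 ± 0.08 (adjusted p = 3.77e-17). With IgM it rose by 1.23 ± 0.10 in WT and 1.5 ± 0.08 in Y691F. ZNF841, ZNF350 and ZNF600 of the same array were also higher in untreated Y691F, by 0.46 ± 0.10, 0.81 ± 0.28 and 0.42 ± 0.09. ZNF350 (ZBRK1), a partner of BRCA1, had 0.583, 1.16 and 0.459 CPM in WT untreated, and its call was lost without replicate 1 or 3 of WT untreated or replicate 1 of Y691F untreated (adjusted p up to 0.136). In all, 9 of the 34 tested members of the array from ZNF175 to ZNF331 were called higher in untreated Y691F and 1 lower, where 15.1% and 16.1% of all genes were called, an array singled out after its values were seen.

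ZNF626 stood at 0.636, 0.846 and 0.746 CPM in WT untreated and at 1.43, 1.76 and 1.36 CPM in Y691F, and with IgM at 0.718, 0.702 and 0.446 CPM and at 1.5, 1.77 and 1.65 CPM. It was higher in Y691F in both states without overlap, by 1.01 ± 0.26 (adjusted p = 0.00137) and 1.38 ± 0.29 (adjusted p = 3.84e-05), and its IgM response was not called in either form. ZNF154, a gene whose promoter is methylated in many tumours, was higher by 0.90 ± 0.17 and 0.62 ± 0.17, and it overlaps ZNF551 on the opposite strand, which differed by 0.00 ± 0.06 and -0.01 ± 0.05. ZNF331 was higher by 0.39 ± 0.09 and 0.28 ± 0.06, and ZNF816 by 0.44 ± 0.15 and 0.42 ± 0.12. ZNF93 was higher by 0.40 ± 0.14 and 0.45 ± 0.14 (adjusted p = 0.0238 and 0.0063), the first lost without replicate 1 or 3 of either untreated group (adjusted p up to 0.075) and the second without replicate 2 of either group with IgM (adjusted p up to 0.0708). The untreated call of ZNF816 was lost without replicate 2 of either untreated group (adjusted p up to 0.0961).

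Some members were higher in Y691F in 1 state by the calls. ZNF347 was higher untreated by 0.58 ± 0.12 (adjusted p = 8.64e-05), and by 0.26 ± 0.12 with IgM (adjusted p = 0.0703). ZNF585A was higher untreated by 0.67 ± 0.19, a call lost without replicate 1 of WT untreated (adjusted p = 0.109). With IgM, ZNF606 was higher by 0.67 ± 0.20, ZNF837 by 1.02 ± 0.32 and ZNF358 by 0.60 ± 0.20, the last call being lost without replicate 1 of Y691F with IgM (adjusted p = 0.124). ZNF582 was higher with IgM by 0.51 ± 0.17, and missed the threshold when replicate 2 of the WT libraries with IgM was left out (adjusted p = 0.174). ZNF426 was higher with IgM by 0.43 ± 0.10.

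Lower in Y691F in both states was ZNF382, a KRAB repressor that is silenced by methylation in carcinomas. It stood at 1.48, 1.20 and 1.26 CPM in WT untreated and at 0.828, 0.518 and 0.403 CPM in Y691F, and with IgM at 1.74, 1.35 and 1.79 CPM and at 0.667, 0.805 and 1.14 CPM. All Y691F libraries lay below the WT libraries, with log2 differences of -1.14 ± 0.29 (adjusted p = 0.00116) and -0.90 ± 0.27 (adjusted p = 0.00474) from 36 and 45 reads in Y691F. ZNF333 was lower by 0.46 ± 0.14 untreated and by 1.11 ± 0.13 with IgM on the log2 scale, signed -0.46 and -1.11. ZNF441 differed by -0.51 ± 0.17 and -0.70 ± 0.17, and ZNF160 by -0.32 ± 0.07 and -0.31 ± 0.06.

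ZNF473 (ZFP100), a component of the machinery that processes replication histone mRNA, stood at 40.9, 43.1 and 39.6 CPM in WT untreated and at 36.4, 38.2 and 36.1 CPM in Y691F. With IgM it stood at 65.6, 67.5 and 65.7 CPM and at 50.4, 50.4 and 49.6 CPM. The libraries did not overlap in either state, with differences of -0.16 ± 0.05 (adjusted p = 0.00581) and -0.40 ± 0.05 (adjusted p = 1.79e-12), the former lost without replicate 2 of WT untreated (adjusted p = 0.0847). ZNF507 differed by -0.17 ± 0.05 and -0.35 ± 0.04. ZNF473 overlaps VRK3 on the opposite strand.

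Other differences were small or held in 1 state by the calls. Untreated, ZNF581 differed by -0.24 ± 0.04, ZNF574 by -0.15 ± 0.04, ZNF296 by -0.14 ± 0.04 and ZNF787 by -0.12 ± 0.04, and the calls of the last 3 were lost without replicate 3 of Y691F untreated (adjusted p up to 0.0938, 0.0673 and 0.24), those of ZNF574 and ZNF787 also without replicate 1 and that of ZNF787 without replicate 3 of WT untreated. The untreated call of ZNF787 was also lost with library totals alone (adjusted p = 0.0544) and with the filter of 5 CPM (adjusted p = 0.0541). ZNF787 was called lower in Y691F with IgM too, at -0.15 ± 0.04 (adjusted p = 0.000717), and so in both states. With IgM, ZNF880 differed by -0.88 ± 0.17, ZNF844 by -0.38 ± 0.11, ZNF17 by -0.40 ± 0.11 and ZNF562 by -0.36 ± 0.04. ZNF726 differed by -1.03 ± 0.33 with IgM, no longer called when replicate 2 of the WT libraries with IgM was left out (adjusted p = 0.0637), and ZNF44 by -0.40 ± 0.14, lost when replicate 1 or 3 of the WT libraries with IgM, or replicate 2 of those of Y691F, was left out (adjusted p up to 0.114).

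All 34 listed genes were tested, which hold the silencing machinery that KRAB zinc finger proteins recruit and heterochromatin factors beside it. In WT with IgM 14 were called higher and 17 lower, where 38.4% and 38.5% of all genes were called, with a median log2 change of -0.13. In Y691F 12 were higher and 17 lower, where 37.1% and 38.7% of all genes were called, with a median of -0.06. TRIM28, the scaffold that the KRAB box binds, stood at 1255, 1196 and 1201 CPM in WT untreated and at 1620, 1630 and 1652 CPM with IgM, and at 1221, 1226 and 1154 CPM and 1839, 1841 and 1833 CPM in Y691F. It rose without overlap by 0.42 ± 0.03 (SE, adjusted p = 1.59e-25) in WT and 0.61 ± 0.03 in Y691F. SETDB1, a histone H3 methyltransferase, changed by 0.17 ± 0.04 (adjusted p = 0.000519) in WT and 0.01 ± 0.04 (adjusted p = 0.846) in Y691F.

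Several of the listed genes, not all of them of the machinery that a KRAB box recruits, fell with IgM while TRIM28 rose. ATF7IP, the partner of SETDB1, fell from 66.5, 64.3 and 61.0 CPM to 31.8, 29.7 and 31.7 CPM in WT, a log2 change of -1.04 ± 0.05, and changed by -0.92 ± 0.05 in Y691F. UHRF1, which keeps DNA methylation through replication, changed by -1.62 ± 0.04 and -1.41 ± 0.04, and EHMT2, another histone H3 methyltransferase, by -1.36 ± 0.04 and -0.95 ± 0.04. DNMT1, the maintenance DNA methyltransferase, changed by -0.60 ± 0.03 and -0.48 ± 0.03, and MTA2, of the NuRD deacetylase complex, by 0.36 ± 0.03 and 0.56 ± 0.03. DNMT3A, a de novo DNA methyltransferase, went from 1.64, 1.91 and 1.15 CPM to 9.88, 10.4 and 10.9 CPM in WT and from 2.58, 2.17 and 2.62 CPM to 5.11, 4.99 and 5.39 CPM in Y691F, with an interaction of -1.63 ± 0.22 (adjusted p = 4.17e-09). Between the untreated forms 5 were called higher and 12 lower in Y691F, led by HDAC1 at -0.32 ± 0.03 and CBX1 at -0.33 ± 0.04, where 15.1% and 16.1% of all genes were called. With IgM 9 were higher and 10 lower, where 21.9% and 20.2% of all genes were called.

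Near-identical sequence limits what can be assigned to single members. In windows of 50 bases along the longest coding transcript, 22 of 244 members shared more than 25% of their windows with transcripts of other genes and 151 shared under 5%. On the opposite strand 133 members overlap another gene model. The 50 tested members that share under 5% and have no such overlap had 29 called higher and 10 lower with IgM in WT, with a median log2 change of 0.45, and 28 higher and 12 lower in Y691F, with a median of 0.40. Of all genes, 38.4% were called higher and 38.5% lower in WT, and 37.1% and 38.7% in Y691F. Of the named members, ZNF446 shared 35.4% of its windows, and ZNF358, ZNF653, ZNF17, ZNF585A, ZNF581, ZNF600, ZNF836 and ZNF816 shared 13.6% to 19.5%.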

How the data were processed

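PolyA+ RNA-seq of the 12 libraries (strand-specific dUTP preparation, per the labels' protocols) was analysed from 1 table of all genes. Its read counts per gene are raw, as deposited by the authors. Its RPKM values were computed by the authors and were used here for levels between genes. The submitters' processing notes name STAR 2.5.0b, DESeq2 and GRCh38. Neither the read counter nor its strand setting is stated in them.

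Counts were filtered with filterByExpr, scaled by TMM and fitted over all 12 libraries with edgeR 4.0.16 (R 4.3.3), by a robust quasi-likelihood model with 1 coefficient per group and 5 contrasts. The SE was taken as |log2 change|/sqrt(F). The test was checked on simulated data with 200 changed genes, far fewer than were called here, and a wider spread between replicates. That check does not bear on scaling where most genes change. DESeq2 1.42.0 served as an alternative, beside other scalings, other filters, a replicate block and fits without each library. Summed CPM was compared by an exact permutation test over libraries.

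The KRAB box was sought in GENCODE 29 translations with a HMMER 3.4 profile (E-value 1e-05) built on a MAFFT 7.526 alignment. C2H2 motifs were counted by pattern. Promoters are those of RefSeq on GRCh38.p14.

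The members and lists were chosen with earlier results of these data known. Named members were the 10 largest rises and falls of each contrast with an adjusted p under 0.05, separated libraries and at least 1 CPM, and the 5 largest of each for the interaction without the condition on separation. To these were added the 5 with the highest RPKM and 10 members set by name. ZNF561, ZNF460, ZNF543, ZNF547 and ZNF266 were named for their promoters after their values were seen.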

Additional observations from a re-analysis of the deposited data

Results flagged for a closer look

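The IgM response differed between Y691F and WT in 19 of the named members by the interaction term of edgeR's quasi-likelihood test, given here as Y691F minus WT on the log2 scale with the Benjamini-Hochberg adjusted p. Both responses were upward and the one in Y691F smaller for ZNF121 (-0.24, adjusted p = 8.35e-05), ZNF562 (-0.33, 8.16e-05), ZNF844 (-0.44, 0.037), ZNF507 (-0.18, 0.0387), ZNF473 (-0.24, 0.00361), ZNF841 (-0.36, 0.0301) and ZNF805 (-0.51, 0.0212). Both were upward and the one in Y691F larger for ZNF653 (0.36, adjusted p = 0.032), ZNF791 (0.32, 0.00215) and ZNF574 (0.23, 0.00242). Both were downward and the one in Y691F smaller in size for ZNF296 (0.35, adjusted p = 2.49e-06) and ZNF580 (0.20, 0.00871).

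A response called in WT and not in Y691F stood behind ZNF44 (-0.65, adjusted p = 0.00816), ZNF333 (-0.65, 0.00683), ZNF85 (0.94, 0.0171), ZNF581 (0.23, 0.00153) and ZNF446 (0.35, 0.0103). A fall called in Y691F and not in WT stood behind ZNF610 (-0.81, adjusted p = 0.0373) and ZNF784 (-0.49, 0.00702). ZNF610 stood at 1.64, 1.96 and 1.66 CPM in WT untreated, 1.26, 2.00 and 1.91 CPM with IgM, and 2.76, 2.23 and 2.32 CPM and 1.5, 1.07 and 1.52 CPM in Y691F.

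Several of these calls were lost in fits with fewer libraries. That of ZNF610 was lost in 6 of 12 fits that left out 1 library (adjusted p up to 0.152): replicates 1 and 3 of WT untreated, 2 and 3 of WT with IgM, 1 of Y691F untreated and 2 of Y691F with IgM. That of ZNF653 was lost in 7 (adjusted p up to 0.118): replicates 1 and 3 of WT untreated, 1 and 2 of WT with IgM, 1 and 2 of Y691F untreated and 1 of Y691F with IgM. The call of ZNF805 was lost without replicate 2 of the WT libraries with IgM, 3 of Y691F untreated or 2 of Y691F with IgM (adjusted p up to 0.1). That of ZNF446 was lost without replicate 1 of the WT libraries with IgM, 3 of Y691F untreated or 2 of Y691F with IgM (adjusted p up to 0.0627). The call of ZNF784 was lost without replicate 1 of Y691F with IgM (adjusted p = 0.0648).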

How the results depend on the processing

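The cause of each shift below was not tested unless stated. Medians near 0 changed sign under some alternatives, as given beside the groups of neighbours and the members without a KRAB box, and the median between the forms with IgM ran from -0.028 to 0.0026 when 1 library was left out. With library totals alone the median log2 change with IgM was 0.28 in WT and 0.19 in Y691F, and the differences in summed CPM were 757 and 591 with IgM, 42.6 between the untreated forms and -123 between the forms with IgM, against 1045, 949, 6.88 and -89.3 with TMM. Without the filter on low counts the medians were 0.34 and 0.26, and 10 members were called lower in the interaction. With only genes above 5 CPM in 3 libraries, which leaves 128 members, the median in WT was 0.48 and the members called lower were 21 in WT, 23 in Y691F and 7 between the untreated forms. The Wald test of DESeq2 called 17 higher between the untreated forms, 18 lower between the forms with IgM and 8 lower in the interaction. Leaving out 1 library at a time, the median with IgM ran from 0.37 to 0.43 in WT and from 0.32 to 0.36 in Y691F, and the members called lower in the interaction from 11 to 24. Of 106 calls of named members, the Wald test lost 15, library totals 6 and the absent filter 3, the stricter filter lost 4 of the 69 it could test, and DESeq2's size factors lost 0. Deviations of same-numbered libraries correlated by -0.062 to 0.030, and those of differently numbered libraries by -0.039 to 0.044. As these deviations hold much counting error, the values cannot show whether the replicate numbers pair the libraries. With a replicate block 112 members were called higher and 34 lower in WT with IgM, 104 and 38 in Y691F, 26 and 13 between the untreated forms, 28 and 29 with IgM and 8 and 17 in the interaction, with medians of 0.41, 0.36, 0.06, -0.01 and -0.08. Members of few reads, such as ZNF614 with 27 reads in WT untreated, have the widest errors.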
